A study of Mus musculus with 6 samples.

Results

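The gene desert Gli3 sites were those peaks on chromosomes 1 to 19 whose midpoint lay more than 2 kb from every annotated transcription start site (TSS), outside every protein-coding gene body, and more than 100 kb from the nearest TSS of a protein-coding transcript. Of the 4114 listed peaks, 4028 were on these chromosomes, and 424 of them met the rule, which is 10.5% (95% Wilson interval 9.62 to 11.5%). The peaks came from chromatin immunoprecipitation with an antibody against Gli3 followed by sequencing (ChIP-seq) of the cerebral cortex of wild-type mouse embryos at embryonic day 15. The authors compared 3 Gli3 ChIP libraries with 3 input libraries, which are sheared chromatin without immunoprecipitation, and joined them in 1 list of positions kept by an irreproducible discovery rate analysis. The list has no height, score or value per library, so that a site is present or not, no error between embryos can be given, and the read depth is unknown. All libraries share the same genotype, tissue and age, and no group without Gli3 was analysed here. Intervals and p-values cover the counting of sites only, and a gene said to have no site has none in this list.

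Gli3 is a zinc finger transcription factor of the Sonic hedgehog (Shh) pathway. Without Hedgehog ligand it is processed to a repressor, and in the dorsal forebrain this repressor form limits ventral gene expression. Gli factors bind a GACCACCCA core, and enhancers of Hedgehog pathway and patterning genes can lie far from the promoters they act on. A gene desert is a long stretch without coding genes, and such stretches beside developmental regulators often hold distant enhancers. No position in the list says which gene, if any, a site acts on, so that each site is named here by the coding genes on its left and right.

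The sequences below show the GLI core in its surroundings, since it led the words that were more frequent in these sites than beside them. Each run has 41 bases of the mouse build mm10, read 5′ to 3′ on the strand of the core, with the core GACCACCCA in capitals. The first 9 are, of the sites with a single core, those whose core lay nearest to the site centre, within 100 bp of it.
*Lrig3*–*Atp23* (chr10:126071586-126071626, minus strand): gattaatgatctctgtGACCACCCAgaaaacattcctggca
*Arpp21*–*Pdcd6ip* (chr9:112909435-112909475, minus strand): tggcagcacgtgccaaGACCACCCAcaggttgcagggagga
*Dhx35*–*Gm826* (chr2:159282124-159282164, minus strand): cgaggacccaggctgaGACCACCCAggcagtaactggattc
*Gm4791*–*Cadm1* (chr9:47307575-47307615, plus strand): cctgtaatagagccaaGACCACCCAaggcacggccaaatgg
*Tcf7l2*–*Habp2* (chr19:56102530-56102570, plus strand): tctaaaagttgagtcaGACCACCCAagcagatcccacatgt
*Gm11361*–*Sox4* (chr13:28775433-28775473, plus strand): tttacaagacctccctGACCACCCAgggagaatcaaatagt
*Ubash3b*–*Sorl1* (chr9:41925589-41925629, minus strand): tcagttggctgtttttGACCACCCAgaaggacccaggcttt
*Atxn1*–*Stmnd1* (chr13:46167735-46167775, plus strand): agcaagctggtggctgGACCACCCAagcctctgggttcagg
*Dusp6*–*Csl* (chr10:99552893-99552933, plus strand): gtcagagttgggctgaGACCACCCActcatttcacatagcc

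The next 4 are further desert sites with a core that flank a gene of the lists of Hedgehog, progenitor, projection neuron and ventral genes described further on. Not all such sites are shown.
*Pkn2*–*Lmo4* (chr3:143866745-143866785, minus strand): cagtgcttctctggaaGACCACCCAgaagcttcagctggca
*Isl1*–*Parp8* (chr13:116494195-116494235, minus strand): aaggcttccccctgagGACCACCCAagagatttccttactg
*Sox2*–*Atp11b* (chr3:35336001-35336041, plus strand): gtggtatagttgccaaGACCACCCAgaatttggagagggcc
*Tut7*–*Gas1* (chr13:59927994-59928034, plus strand): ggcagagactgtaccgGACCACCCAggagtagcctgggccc

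The base just before the core was A in 35 of the 67 sites with a single core, G in 20, T in 11 and C in 1. The base just after it was G in 25 and T in 7. Farther out, the fifth base after the core was G in 32, the second base after it was G in 26, and the fourth base before it was C in 26 and A in 7. These counts are a description without a test.

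An exact GLI core on either strand was present in 68 of the 424 desert sites, or 16.0% (95% Wilson interval 12.9 to 19.8%). Among all 4028 sites on chromosomes 1 to 19, the share was 12.2%. In flanks of the same length, which began 1 site length from each edge, 15 of 845 held the core, or 1.78% (interval 1.08 to 2.91%). The share in sites was thus 9.03 times that in flanks (two-sided Fisher's exact test, p = 5.92e-21). In windows of the same lengths laid end to end over all sequence that meets the desert rule, 1.10% held the core, which corresponds to 4.65 of 424. The remaining 356 desert sites had no exact core, and with 1 mismatch allowed 269 desert sites (63.4%) had a match, against 35.4% of flanks. Of the 223 sites beyond 200 kb, 28 (12.6%) had an exact core, against 2.02% of their flanks. Of the 376 sites that met the rule in the RefSeq annotation as well, 62 (16.5%) had one.

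The share of sites with a core did not differ beyond counting error between desert sites and 3 other classes away from promoters. It was present in 14.1% of the 488 sites outside coding genes and 20 to 100 kb from a coding TSS, in 15.9% of the 258 such sites within 20 kb, and in 15.9% of the 176 sites that lie inside a coding gene but more than 100 kb from a coding TSS. The odds ratios of desert sites against these classes were 1.16, 1.01 and 1.01, and none passed the test (Fisher's exact test with Benjamini-Hochberg adjustment over 4 classes, adjusted p = 0.915, 1 and 1). In the 844 sites inside a coding gene and within 100 kb of a coding TSS, which were described after these results and not tested, the share was 14.3% (95% Wilson interval 12.1 to 16.9%). Of the 1838 sites within 2 kb of any TSS, 9.03% held the core (odds ratio 1.92, exact test, adjusted p = 2.39e-04). That difference was not kept when the first 8 bases of the core were searched (odds ratio 1.04, exact test, adjusted p = 0.934) or with 1 mismatch allowed (0.982, adjusted p = 0.867), and promoter sites had a higher GC content, with a median of 54.98% against 46.0%. The part of base composition in it was not tested.

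**Figure D1:**
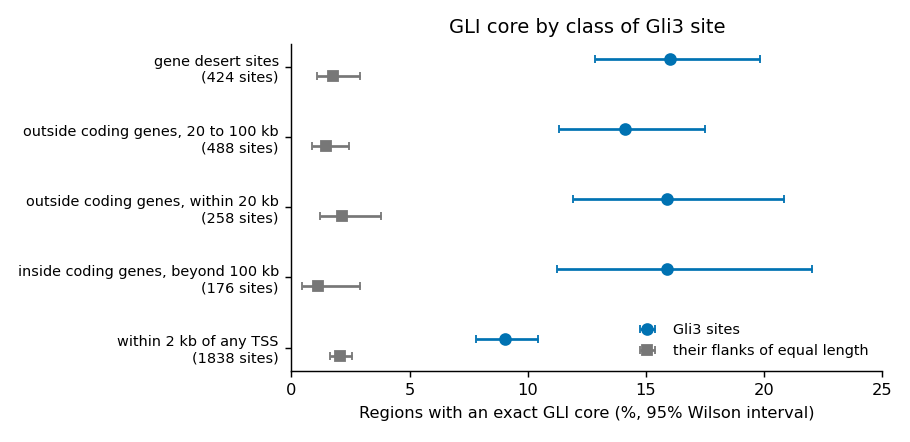
Percent of regions with an exact GLI core (x axis) in 5 classes of Gli3 sites (circles) and in flanks of the same length (squares), with 95% Wilson intervals. The desert sites stand at 16.0% against 1.78% in their flanks, and their interval overlaps those of the other 3 nonpromoter classes shown.

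Of the 68 sites with a core, 67 had a single one. The remaining site, between *Dok5* and *Cbln4* (chr2:171862406-171864851), had 51 cores, all on the minus strand, over 1392 bp, and its flanks had none. *Dok5* encodes a docking protein of receptor tyrosine kinases and *Cbln4* a secreted synaptic organizer. Neighbouring cores of this array were most often spaced by 17 bp (14 pairs) or 14 bp (12 pairs). The 200 bases at the middle of the array, with 8 exact cores in capitals, show the repeated unit.
Array between *Dok5* and *Cbln4* (chr2:171863553-171863752, minus strand): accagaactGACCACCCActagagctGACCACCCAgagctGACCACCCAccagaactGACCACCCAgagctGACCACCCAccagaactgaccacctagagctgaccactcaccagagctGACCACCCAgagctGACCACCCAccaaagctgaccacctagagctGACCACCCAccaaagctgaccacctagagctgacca
In this site 45.5% of the 32-base words occur more than once in the assembly, which is below the 50% at which a site was called recurring here. How much of its signal came from reads that can map to several places was not tested.

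Cores were spread over the sites. In the 67 sites with a single core, 29 cores (43.3%) lay in the central 33.3% of the site (two-sided exact binomial test, p = 0.0922). With the array included, 58 of 118 cores (49.2%) did so (exact test, p = 4.02e-04), so that 1 site decides this call. Without the array, the median distance from core to centre was 329 bp, the largest was 1813 bp, 9 cores lay within 100 bp, and 31 cores were on the plus and 36 on the minus strand. Sites with a core had a median width of 2121 bp and those without 1763.5 bp.

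**Figure D2:**
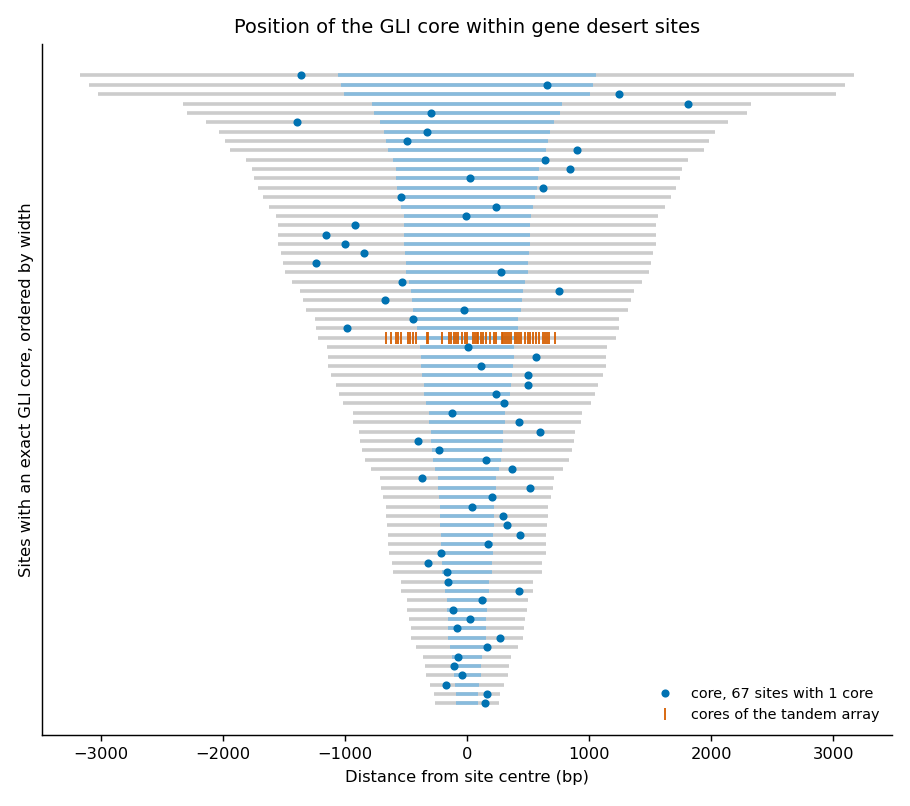
Each horizontal line is 1 of the 68 desert sites with an exact GLI core, ordered by width and centred at 0 on the x axis (distance from the centre in bp), with the central part of the site in blue. Points are the cores of the 67 sites with 1 core and orange ticks are the 51 cores of the array. Points lie in the central part in 29 of 67 sites.

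The distance of the members to coding genes is set by the rule and is given as a description. The median distance to the nearest coding TSS was 206 kb (quartiles 149 and 330 kb), with 223 sites beyond 200 kb, 49 beyond 500 kb and 4 beyond 1 Mb. The farthest lay between *Pcdh20* and *Pcdh9*, which encode protocadherins, at 2419 kb (chr14:90889426-90890445). The next were a site between *Celf4*, which encodes a neuronal RNA-binding protein, and *Pik3c3* at 2083 kb and a site between *Nr2f1* and *Arrdc3* at 1231 kb (chr13:79429989-79431727). *Nr2f1* encodes an orphan nuclear receptor that patterns cortical areas. None of these 3 had an exact core. Just inside the threshold were sites between *Hey1* and *Mrps28* at 100.054 kb and between *Fam76b* and *Sesn3* at 100.592 kb. Just outside it were a site beyond *Wls* at 99.84 kb and a site between *Insc* and *Sox6* at 99.297 kb.

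Sequence that meets the rule made up 707.7 Mb, or 29.5% of the assembled bases of these chromosomes, against 10.5% of the sites. This corresponds to 59.9 sites per 100 Mb in desert sequence and 213 per 100 Mb elsewhere. Of 1742 stretches between neighbouring coding genes that hold such sequence, 294 (16.9%) held a desert site. The median amount of desert sequence was 464 kb in stretches with a site and 146 kb in those without.

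The rule fixed the distance to coding TSSs, but it kept out neither other transcription nor short stretches between coding genes. The median distance to the nearest TSS of any annotated transcript was 37.0 kb, with 68 sites nearer than 10 kb and 62 sites beyond 100 kb. The midpoint of 67 sites (15.8%) lay in an annotated noncoding gene, of the class of long intergenic RNAs in 48 of them. In the class 20 to 100 kb from a coding TSS, 70 sites (14.3%) did so (odds ratio 1.12, Fisher's exact test, p = 0.578). The noncoding genes with the most desert sites were *2610307P16Rik* with 7 and *3110039I08Rik* with 4, and *Sox2ot*, the long RNA that overlaps *Sox2*, held 2. The stretch between the flanking coding genes was shorter than 200 kb for 25 sites, the shortest being the 61.8 kb between *Slc12a2* and *Fbn2*, where the TSSs of both genes lie at the ends away from the stretch. In the RefSeq annotation, 27 desert sites had a TSS within 2 kb and 24 a coding TSS within 100 kb, and 376 sites met the rule in both annotations.

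**Figure D3:**
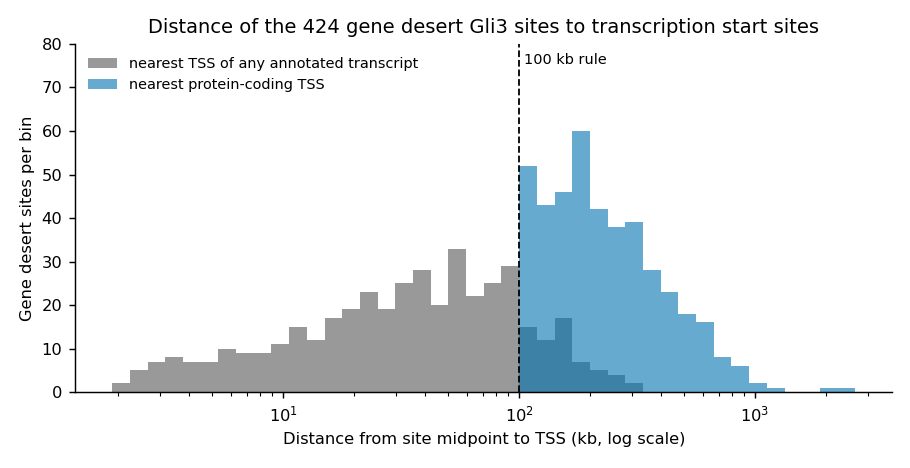
Number of the 424 desert sites (y axis) by distance from the site midpoint to the nearest TSS on a log axis in kb, for any annotated transcript (grey) and for protein-coding transcripts (blue). The coding distances start at the 100 kb rule, while 68 sites have some TSS nearer than 10 kb.

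Desert sites were often alone in their stretch, and some came in runs. Of the stretches with a coding gene on both sides, 205 held 1 desert site, 60 held 2, and 26 held 3 or more, with 95 sites in these 26. Of all desert sites, 30 had another Gli3 site within 10 kb and 98 within 50 kb, and the median distance to the nearest other site was 191 kb. The largest run had 8 sites between *Gm26897* and *Cryba4*, a lens crystallin gene (chr5:111864712-112134810). Next came 7 sites between *Gm11361* and *Sox4* (chr13:28650911-28812743), 6 between *Ubash3b* and *Sorl1* (chr9:41391699-41925982) and 5 between *Mki67* and *Mgmt* (chr7:135962744-136343325). *Sox4* encodes an SRY-box factor of immature neurons, *Sorl1* a sorting receptor for the amyloid precursor, *Mki67* a marker of dividing cells and *Mgmt* a DNA repair enzyme. Each of these 4 runs had exactly 1 site with a GLI core.

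Runs of 4 sites lay between *Sox9* and *Slc39a11* (chr11:112980573-113122809), *Sulf2* and *Prex1* (chr2:166343311-166472592), and *Fut8* and *Gm6657* (chr12:77736932-78074872). *Sulf2* encodes an extracellular sulfatase that trims heparan sulfate. None of these had an exact core. Runs of 3 beside genes of transcriptional regulators were those between *Opa1* and *Hes1*, *Sox2* and *Atp11b*, *Fam49a* and *Mycn*, *Insc* and *Sox6*, *Sall1* and *Tox3*, and *Triqk* and *Runx1t1*. Runs of 3 beside genes of signals, receptors or adhesion were those between *Tut7* and *Gas1*, *Wdr11* and *Fgfr2*, *Slc4a3* and *Epha4*, *Camk1g* and *Plxna2*, *Gm4791* and *Cadm1*, *Slc30a5* and *Pik3r1*, and *Sdk2* and *Rpl38*. The others were those between *Marcks* and *Rfpl4b*, *Auts2* and *Castor2*, *Rps24* and *Zmiz1*, *Rybp* and *Shq1*, *Tmpo* and *Nedd1*, and *Usp6nl* and *Celf2*. The last stretch was only 93.3 kb long. Among the 26 runs, 14 had a site with a core, and 14 of their 95 sites (14.7%) had one.

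The 7 sites of the *Sox4* run lay 302, 289, 264, 215, 184, 178 and 142 kb from the *Sox4* TSS, all inside *2610307P16Rik*. The site at 178 kb had the core shown above. The 8 sites of the *Cryba4* run lay between 118 and 385 kb from *Cryba4*, with widths from 1055 to 3041 bp, and none of them was inside an annotated noncoding gene. Of the 6 sites of the *Sorl1* run, 4 lay inside *3110039I08Rik* and the site with the core lay 199 kb from *Sorl1*. The 3 sites between *Usp6nl* and *Celf2* lay 101, 111 and 132 kb from *Usp6nl*.

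The 424 sites had 558 distinct flanking coding genes. Of these, 6 (1.08%) were on a list of 32 autosomal genes of the Hedgehog pathway and its targets, against 0.217% of the 2306 genes that flank desert sequence without a desert site and 0.154% of all 20807 autosomal coding genes. In the class 20 to 100 kb from a coding TSS the share was 0.964%. These shares are a description without a test, since the lists were chosen with results of these data known. Here and for the lists below, stretches without a site held less desert sequence (median 146 kb against 464 kb). The comparison with them was not matched for length.

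Desert sites lay beside 3 genes whose products receive or bind the ligand. *Ptch1*, the Hedgehog receptor, had 1 desert site at 128 kb (chr13:63700553-63702405). *Hhip*, a membrane protein that binds and sequesters the ligand, had 2 sites, of which 1 had an exact core. *Gas1*, a co-receptor, had 3 sites at 126, 205 and 250 kb, and the farthest had a core (chr13:59925177-59929053).

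The effector *Gli2*, a factor of the same family as Gli3, had 3 sites, at 150 kb (chr1:119201364-119206573), 203 kb (chr1:119254408-119257899) and 281 kb (chr1:118771974-118772624). The first of these was 5210 bp wide. Of the targets, *Mycn*, which drives progenitor proliferation, had 3 sites at 264, 271 and 320 kb (chr12:12620040-12678426), and *Nkx6-1*, a ventral spinal cord factor, had 2 at 140 and 553 kb. None of the sites beside *Gli2*, *Ptch1*, *Mycn* or *Nkx6-1* had an exact core. *Shh*, *Gli1*, *Gli3* and the other listed genes did not flank a desert site. *Ptch1*, *Hhip* and *Mycn* also had a Gli3 site within 2 kb of a coding TSS, and *Gas1*, *Gli2* and *Nkx6-1* had none.

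Factors of cortical progenitors made up 15 of the 558 flanking genes (2.69%), against 0.694% in stretches without a site and 0.250% of all coding genes. In the class 20 to 100 kb from a coding TSS the share was 1.38%. *Sox2* and *Sox9*, which maintain neural stem cells and radial glia, had 5 sites each. Those of *Sox2* lay at 206, 209, 438, 685 and 691 kb, and the site at 685 kb had the core shown above. Those of *Sox9* lay between 187 and 339 kb, without a core. *Hes1*, the Notch effector, had 3 sites at 172, 345 and 353 kb. *Tfap2c*, *Id2*, *Nfib* and *Nr2f2* had 2 sites each, and *Tcf7l2*, *Tcf4*, *Lef1*, *Hey1*, *Id4*, *Nr2f1*, *Pou3f2* and *Zic4* had 1 each. *Tcf7l2* and *Lef1* encode nuclear effectors of Wnt signalling, and the *Tcf7l2* site at 204 kb had a core 26 bp from its centre. The single site beside *Tcf4*, a bHLH partner gene, also had a core. It lay 716 kb from *Tcf4* and 198 kb from *Mc2r*. Another coding TSS lay nearer to some other sites of this list as well. The *Nfib* sites lay at 778 and 880 kb, with a coding TSS at 284 and 183 kb. The farther *Id2* site lay at 1047 kb, with a coding TSS at 271 kb.

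Genes listed for cortical projection neurons made up 9 flanking genes (1.61%, against 0.607% and 0.149%). Factors of the ventral forebrain and interneurons made up 8 (1.43%, against 0.434% and 0.135%). In the class 20 to 100 kb from a coding TSS, the shares of these lists were 0.275% and 0.551%. Besides *Sox4*, the neuronal genes were *Bcl11a*, *Bcl11b*, *Sox11*, *Myt1l*, *Tle4*, *Lmo4*, *Tshz3* and *Unc5d*. The last is also counted among the adhesion and axon guidance families below. Another coding TSS lay nearer to some of these sites. The *Sox11* site lay at 1050 kb, with a coding TSS at 156 kb. *Bcl11b*, which specifies subcerebral neurons, had 2 sites at 245 and 287 kb, and *Lmo4*, a cofactor of areal identity, had 2 at 220 and 336 kb, of which the farther was 522 bp wide and had a core. The ventral genes included *Isl1*, *Maf*, *Prox1*, *Ebf2*, *Pbx3*, *Sall3* and *Tshz1*. Here too some sites had a nearer coding TSS. The *Sall3* site lay at 1181 kb, with a coding TSS at 239 kb. The site beside *Isl1*, a factor of striatal and motor neurons, lay at 184 kb, was 537 bp wide and had a core (chr13:116493784-116494320). Of 20 glial genes on the fifth list, 0 were among the 558 genes that flank a desert site. The list made up 0.0961% of all coding genes. It made up 0.304% of the genes beside empty stretches and 0.689% in the class 20 to 100 kb from a coding TSS. A list this short cannot show a lack of glial genes.

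By gene families taken from symbols alone, transcription factor families made up 57 flanking genes (10.2%, against 5.07% beside empty stretches and 2.38% of all coding genes), and 7.71% in the class 20 to 100 kb from a coding TSS. Adhesion and axon guidance families made up 37 (6.63%, against 2.56% and 1.09%), and 1.79% in that class. Among these, *Epha4*, an ephrin receptor, had 4 sites, at 309, 944, 1190 and 1710 kb. Those at 944, 1190 and 1710 kb lay nearer to *Slc4a3*, at 884, 638 and 118 kb. *Plxna2*, a semaphorin receptor, had 3 sites, at 374, 948 and 1044 kb. Those at 948 and 1044 kb lay nearer to *Camk1g*, at 302 and 206 kb. Olfactory and vomeronasal receptors, which form large clusters of genes, made up 7.07% of all coding genes and 1.47% of those beside empty stretches. Their share was 0.179% beside desert sites and 0.138% in the class 20 to 100 kb from a coding TSS, which is 1 gene in each.

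**Figure D4:**
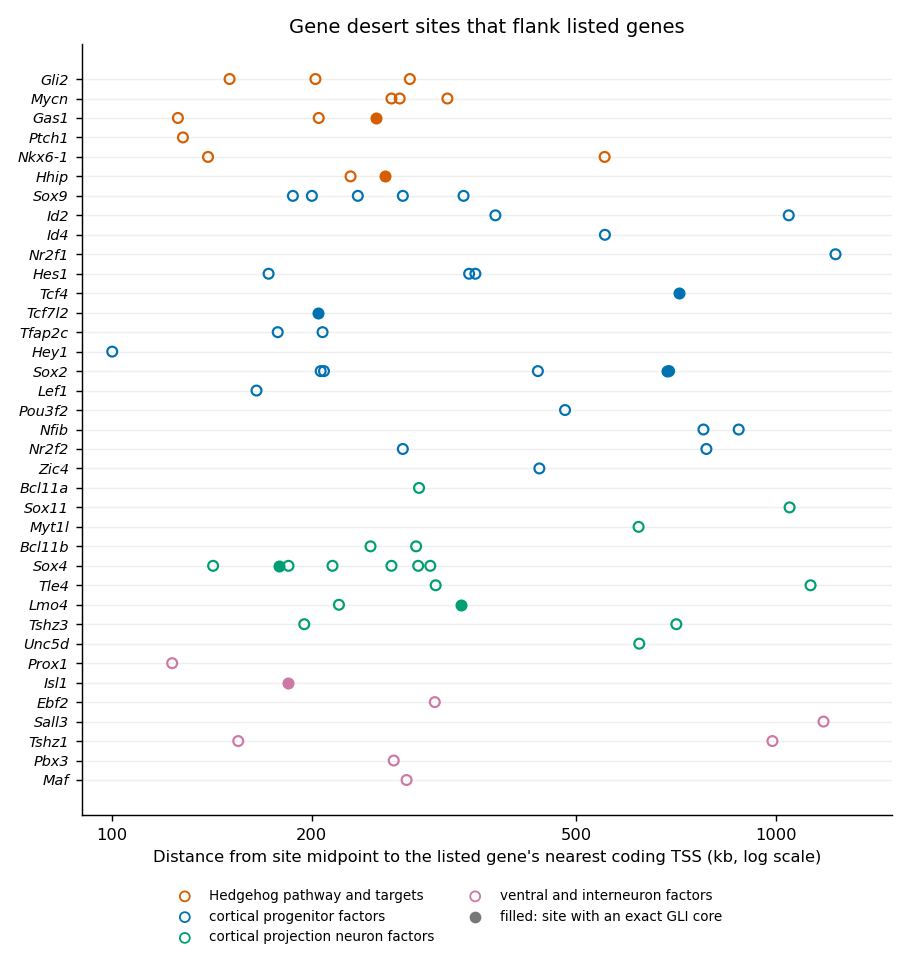
Distance from the midpoint of each desert site to the nearest coding TSS of the listed gene it flanks (x axis, kb, log scale), for genes of 4 lists (rows). Filled points are sites with an exact GLI core. The sites shown include 8 with a core, and *Sox4* has the most sites, with 7. These 8 are all that had a core among the 71 desert sites beside the 38 listed genes. A core was present in 68 of all 424 desert sites (16.0%) and in 12.2% of all Gli3 sites on chromosomes 1 to 19.

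Some of the flanking genes had a promoter site as well. Of the 558 flanking genes, 80 (14.3%) had a Gli3 site within 2 kb of a coding TSS, and the share among all autosomal coding genes was 7.97%. Among the 38 listed genes, 15 had one. Besides *Ptch1*, *Hhip* and *Mycn*, these were *Hes1*, *Id2*, *Id4*, *Nfib*, *Pou3f2*, *Tcf4*, *Hey1*, *Bcl11a*, *Sox11*, *Tle4*, *Sall3* and *Maf*. To compare with the class 20 to 100 kb from a coding TSS, the 104 genes that flank sites of both classes were left out. Of the remaining genes, 55 of 454 (12.1%) beside desert sites and 89 of 622 (14.3%) beside the nearer sites had a promoter site (odds ratio 0.826, Fisher's exact test, p = 0.319).

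Desert sites were richer in GC than their surroundings. The mean GC content was 46.0% ± 4.52 (SD, n = 424 sites) in the sites and 43.4% ± 4.35 in the flanks. The mean difference was 2.57 percentage points (permutation test that flips the signs of the differences, 100000 resamples, two-sided, p = 1e-05, the smallest they can give). GC content was higher than in the flanks in 326 of 424 sites. Among the sites with a core it was higher in 52 of 68. The ratio of observed to expected CpG dinucleotides was 0.221 ± 0.130 in sites and 0.182 ± 0.0631 in flanks (same permutation test of the mean difference, p = 1e-05). This ratio was higher in 268 of 424 sites. Compared with the class 20 to 100 kb from a coding TSS, the median GC content of desert sites was lower by 3.49 percentage points (46.0% against 49.5%, permutation test, p = 1e-05). Sites that lie inside coding genes beyond 100 kb from a coding TSS had a median of 46.6%, near that of desert sites, and those within 100 kb had 49.5%.

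**Figure D5:**
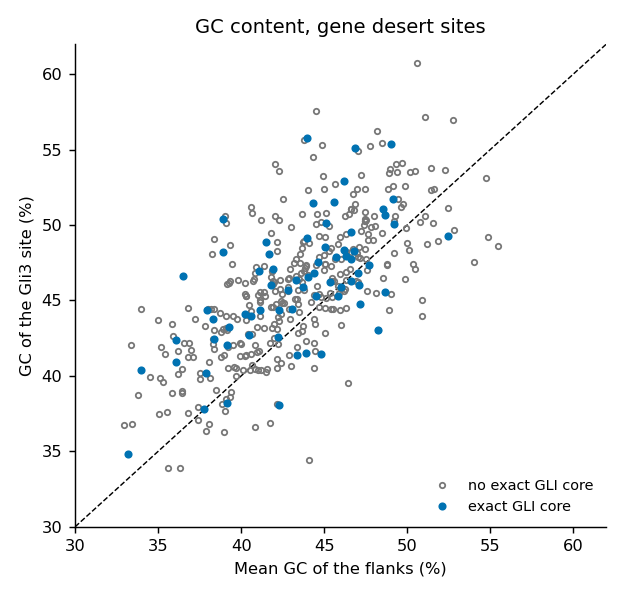
GC content of each of the 424 desert sites (y axis, percent) against the mean of its flanks (x axis, percent), with sites that hold an exact GLI core in blue. Points above the dashed line of equal values are the 326 sites with a higher GC content than their flanks.

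A CpG-rich sequence, here one with over 50% GC and an observed to expected ratio over 0.6, was found in 1 desert site (0.236%), in 15 sites (3.07%) of the class 20 to 100 kb from a coding TSS, in 0 of the 176 sites inside coding genes beyond 100 kb and in 796 promoter sites (43.3%).

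The 3 widest desert sites included one of 6367 bp between *Tfap2c*, a factor of basal progenitors, and *Bmp7*, a bone morphogenetic protein (chr2:172755418-172761784). The others were a site of 6570 bp between *Sall3* and *Galr1*, with 75.1% recurring words, and a site of 6337 bp between *Rragc* and *3100002H09Rik* (chr4:124032712-124039048), which had a core. The narrowest were 213 bp beyond *Cr2* and 268 bp between *1700015G11Rik* and *Luzp2*. Next came 2 sites of 395 bp each, one between *Mut* and *Ptchd4*, a gene of the patched domain family, and one between *Kcnj3* and *Nr4a2*, which encodes an orphan nuclear receptor. The median width of desert sites was 1810 bp and that of the class 20 to 100 kb from a coding TSS was 1892.5 bp, which did not differ beyond the spread of sites (permutation test, p = 0.267).

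A scan of every 8-base word, pooling a word with its reverse complement, found the GLI core without its being specified. Of these words, 115 (0.35%) differed between desert sites and flanks after Benjamini-Hochberg adjustment of Fisher's exact test, 63 of them more and 52 less frequent in sites. The first was GACCACCC, which 20.05% of sites held against 3.67% of flanks (adjusted p = 1.41e-15 from the exact test). The next 3, GCCACCCA, ACCACCCA and CCACCCAG, overlap the core or resemble it. Further words such as GCTGGCAC and CAGCTGGC, in 15.6% and 17.5% of sites against 5.68% and 7.46% of flanks, do not contain it. The leading words that were rarer in sites were rich in A and T, such as ATATATAA in 5.42% of sites and 16.9% of flanks.

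Of 10 motifs of other factors, searched on both strands, 5 were more frequent in desert sites than in flanks after adjustment over the 10. The E-box CAGCTG, bound by bHLH factors, was in 69.3% of sites and 53.6% of flanks (Fisher's exact test, adjusted p = 6.88e-07), and it also passed within the central 200 bp, with 15.8% against 7.81% (adjusted p = 2.45e-04). The NFI motif TTGGCA was in 73.8% and 62.5% (exact test, adjusted p = 2.74e-04). The SOX motif CCTTTGT was in 41.04% and 33.6%, the homeodomain motif TAATTA in 50.2% and 43.3%, and the SP motif GGGCGGGG in 9.20% and 5.68% (exact tests, adjusted p = 0.0367, 0.0495 and 0.0495). Within the central 200 bp, where fewer windows held any motif, these 4 had odds ratios of 1.39 (NFI), 1.42 (SOX), 1.55 (TAATTA) and 1.33 (SP), against 1.69, 1.37, 1.32 and 1.68 over whole sites, and did not pass (exact tests, adjusted p = 0.201, 0.287, 0.201 and 0.821). The E-box CAGATG, with 78.5% against 73.7%, the POU motif ATGCAAAT, with 17.0% against 12.8%, and the AP-1, RFX and CTCF motifs TGANTCA, GTTGCCAT and AGGGGGCGC did not pass the test. The flanks are poorer in GC, and its part in these differences was not tested.

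Against the class 20 to 100 kb from a coding TSS, desert sites had the SP motif less often (9.20% against 20.5%, Fisher's exact test with adjustment over 20 comparisons, adjusted p = 4.02e-05). They also had the CTCF motif less often (0.236% against 3.07%, exact test, adjusted p = 0.00699) and TAATTA more often (50.2% against 40.6%, adjusted p = 0.0273). None of the 10 motifs passed the test against sites that lie inside coding genes at the same distance from a coding TSS. Desert sites also had a lower GC content than the class 20 to 100 kb from a coding TSS, and fewer recurring sites (2.36% against 9.43%). The part of either in these motif differences was not tested.

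Some desert sites lay in recurring sequence, in which reads can map to several places. In 10 of them (2.36%) over 50% of 32-base words occur more than once in the assembly, against 46 (9.43%) in the class 20 to 100 kb from a coding TSS (odds ratio 0.232, Fisher's exact test, p = 5.80e-06). The share was 3.49% within 20 kb, 0.568% and 2.01% inside coding genes beyond and within 100 kb, and 2.56% within 2 kb of a TSS, so that the class 20 to 100 kb from a coding TSS had the highest share of the 6 classes. With a threshold of 50 kb in the rule, the difference did not pass (odds ratio 0.616, exact test, p = 0.0993). None of the 10 had an exact core. They included the narrowest site, beyond *Cr2*, and the widest, between *Sall3* and *Galr1*, as well as 2 sites before *H60c* near the start of chromosome 10.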

How the data were processed

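ChIP-seq with a Gli3 antibody was done on wild-type mouse cortex at embryonic day 15, with 3 ChIP and 3 input libraries. Per the labels, the authors' processing notes name Bowtie2, SAMtools and MACS2 and the build mm10. The deposited list gives a position and a name for each peak of the joined replicates. The peak and IDR thresholds are not given in the sources used here, and they set how many sites are listed and how wide they are. Depth per library is unknown.

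Starts were converted to 1-based positions. Sequence came from GRCm38.p6 of RefSeq, which has the coordinates of mm10, genes from GENCODE M21, and RefSeq transcripts served as a second annotation. A site was classed by its midpoint. Each site had 2 flanks of its own length, and 845 were free of assembly gaps and chromosome ends. Recurrence was read from 32-base words taken every 10 bases. Shares were compared with two-sided Fisher's exact tests, medians and within-site differences with permutation tests of 100000 resamples, and p-values were adjusted with the Benjamini-Hochberg method. A site and its flanks share a locus, and neighbouring sites are not independent.

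The named sites were the 20 with the core nearest to the site centre, the 3 farthest, widest and narrowest, the 2 on either side of the threshold, every stretch with 3 or more sites, and every site beside a gene of the lists for the Hedgehog pathway, progenitor, projection neuron, ventral and glial genes. A few features selected in this way are not reported here. The members and lists were chosen with earlier results of these data known. The second annotation and the removal of the site with the core array were chosen after seeing the data. The code was tested on simulated sequences with planted cores. The work used python 3.11.15, numpy 2.4.6, pandas 2.3.3, scipy 1.17.1 and matplotlib 3.10.9.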

Additional observations from a re-analysis of the deposited data

How the results depend on the processing

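Of 75 alternative values, 52 kept their direction and their side of the threshold or stayed within 1.5 times the count. The excess of the GLI core over flanks kept both in every alternative run, with ratios from 1.79 with 1 mismatch to 19.9 in the central 200 bp. The ratio of 19.9 rests on few regions, 10 of 424 sites (2.36%) and 1 of 845 flanks (0.118%). Comparisons of the core between classes were less stable. Against the class 20 to 100 kb from a coding TSS, the odds ratio fell below 1 with the first 8 bases of the core (0.985), in the central 200 bp (0.818) and with a threshold of 200 kb (0.764). Against sites within 20 kb it was 0.823 with 1 mismatch, 0.846 with the first 8 bases, 0.948 at 50 kb and 0.760 at 200 kb, and against sites inside genes 0.768, 0.853 and 0.634 with 1 mismatch, the first 8 bases and 200 kb. None of these passed the test, nor did the main values. Against promoter sites it was 0.982 with 1 mismatch, 1.04 with the first 8 bases and 2.09 in the central 200 bp, all without passing. The central share of cores lost its call at 200 kb (46.4%) and without the array (43.3%). At 200 kb 223 sites remained as members, and their median width was lower by 252 bp than in the nearer class (−252, p = 0.0122, permutation test). At 50 kb the odds ratio for recurring sequence was 0.616 and that for promoter sites of flanking genes 1.00. The number of motifs called was 2 with flanks 10 kb away and 1 in the central 200 bp, and the number of words was 248 with those flanks and 480 at 50 kb. The causes of these changes were not tested. Without values per library, no replicate could be left out, and depth could not be weighed.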

Other observations

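The density of desert sites differed between chromosomes. It ranged from 31.3 sites per 100 Mb of desert sequence on chromosome 17, with 7 sites, to 99.3 on chromosome 9, with 28 sites, and chromosome 13 had the most sites, 34. The Gli3 sites elsewhere ranged from 141 per 100 Mb on chromosome 14 to 310 on chromosome 11.

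Beside the array between *Dok5* and *Cbln4*, 2 further desert sites had many matches to the GLI core with 1 mismatch, and they were named after these values were seen. A site between *Gpatch2* and *Esrrg* (chr1:187352492-187356668) had 42 such matches and no exact core, with 65.8% recurring words. A site between *1810013L24Rik* and *Grin2a*, which encodes a subunit of the NMDA receptor, had 14 (chr16:9353880-9355776), with 27.3% recurring words. The next highest number was 6, beside *Tfap2c*.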
